A study of Rattus norvegicus with 6 samples.

Results

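The chondro-osteogenic fate miRNAs rno-miR-140, rno-miR-140*, rno-miR-455, rno-miR-204 and rno-miR-211 were examined in rat tendon-derived stem cells (rTDSCs) with or without mechanical loading. They were chosen by name, as 5 of the 677 miRNAs on the array, and not by their values. Earlier results of these data were known when they were chosen. The rTDSCs are colony-forming cells of the patellar tendon of male Sprague Dawley rats, 8 weeks old, pooled as mixed colonies and used at passage 3. The 3 non-loading samples were kept static on collagen-coated flexible membranes, and the 3 loading samples were stretched on such membranes along 1 axis by 10% at 0.5 Hz for 8 h per day. All 6 samples carry the label of 7 days and were measured on one-colour Agilent arrays on 1 slide. The 3 non-loading samples and loading replicate 1 stood in 1 row of it, and loading replicates 2 and 3 in another. Slide row and loading are therefore partly confounded in every comparison here. Neither the labels nor the methods say whether the 3 samples of a group came from separate cultures or animals, so p-values measure only the spread between these samples, which may be technical.

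miRNAs are short RNAs that lower the output of messenger RNAs carrying a match to their seed, the bases near the 5′ end. miR-140 comes from within the Wwp2 gene, is switched on by Sox9 and is abundant in cartilage, where both arms of its hairpin are found and Hdac4 and Adamts5 are known targets. miR-455 comes from within the cartilage collagen gene Col27a1 and is also a cartilage miRNA. miR-204 and its relative miR-211 are known to repress Runx2, the master transcription factor of osteoblasts, in mesenchymal progenitors. The comparison asks whether levels of these miRNAs differ in rTDSCs under a stretch regimen that the study used as a model of chondro-osteogenic differentiation.

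The mature sequences show which members could act on the same targets. They are from RefSeq (GRCr8), read 5′ to 3′, with the seed (bases 2 to 8) in capitals. In current naming, miR-140 and miR-140* of the array correspond to the 5p and 3p arms, and miR-204 and miR-211 to 5p arms; 4 of the 5 names were matched to an entry in this way, which the array files do not allow to be checked against the probes. For Mir455 the arm that the unmarked name stands for was not settled, and the 3p arm, the entry held by the table used here, is printed for reference.
rno-miR-140-5p: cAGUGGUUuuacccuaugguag
rno-miR-140-3p: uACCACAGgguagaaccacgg
rno-miR-455-3p: gCAGUCCAcgggcauauacacu
rno-miR-204-5p: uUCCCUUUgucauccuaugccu
rno-miR-211-5p: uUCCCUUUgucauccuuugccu
rno-miR-211-3p: gGCAAGGAcagcaaaggggg
miR-204-5p and miR-211-5p share the seed UCCCUUU with no other of the 724 mature rat sequences in the table. They were identical at 21 of 22 positions and differed by A17U (miR-204-5p first, counted from the 5′ end). The seeds of miR-140-5p, miR-140-3p, miR-455-3p and miR-211-3p were shared with no other entry, so the arms of the Mir140 hairpin have different seeds.

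On the plus strand of GRCr8, miR-140-5p lies at chr19:52375314-52375335 and miR-140-3p at chr19:52375353-52375373, in a hairpin within the span of Wwp2. miR-455-3p lies at chr5:81704881-81704902 within the span of Col27a1. miR-204-5p lies at chr1:229743493-229743514 within the span of Trpm3, and miR-211-5p at chr1:127189353-127189374 within the span of Trpm1. The pair with the shared seed thus comes from 2 loci far apart on chromosome 1.

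Signals are given as a percentage of a scale signal of the same array, the 75th percentile of probes detected on every array, and log2 values are log2 of that fraction. The scale signal lay between 262.6 and 362.2 intensity units, no spot was saturated, and the scanner software detected 140 to 186 miRNAs per array. Spots with negative-control probes had mean intensities of 2.84 to 4.09 per array, and 95% of them were below 6.26 to 7.93. A miRNA was tested if the software detected it on the 3 arrays of either group, which held for 148. By limma with Benjamini-Hochberg adjustment 0 of 148 (0%) passed an adjusted p of 0.05, against 2 with the methods' t-test, and 14 (9.46%) had an unadjusted p under 0.05, 13 of them higher and 1 lower under loading. With quantile normalization that split was 8 higher and 9 lower. No overlap between the groups was seen for 23 miRNAs (15.5%), with 19 higher under loading (12.8%) and 4 lower (2.7%). The median log2 change over the 148 was 0.06, and it moved to −0.09 with the percentile taken over all probes, so changes are best read beside it.

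Of the 5 members, miR-140 and miR-140* were detected on all 6 arrays, and both lay at similar levels with and without loading. miR-455 was dim and 1.17-fold higher under loading, with groups that did not overlap but an adjusted p far from the threshold. miR-204 and miR-211 were near the signal of the negative controls in both groups and were not tested. No tested member passed the adjusted threshold (0 of 3 by limma), 1 had an unadjusted p under 0.05, and for 1 the groups did not overlap, a count to be read against the 9.46% and 15.5% of all tested miRNAs.

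**Figure D1:**
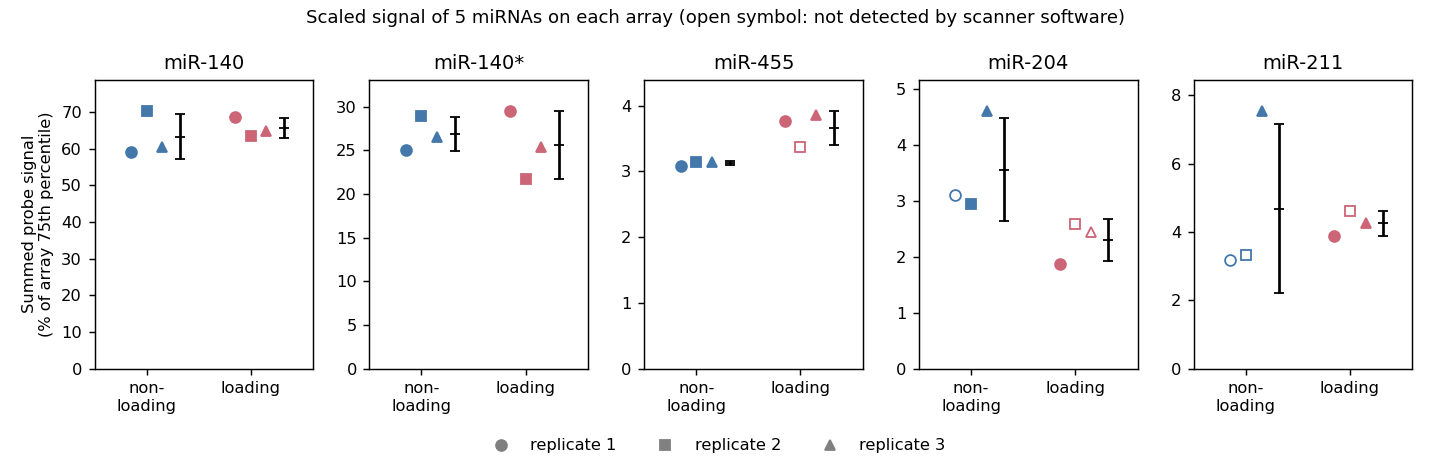
Summed probe signal of each miRNA on each array, as a percentage of the 75th percentile of that array, with 1 panel and y axis per miRNA. Points are arrays, bars the mean and SD of the 3 arrays of a group, and open symbols arrays on which the scanner software did not detect the miRNA. The groups overlap for miR-140, miR-140* and miR-211. For miR-455 all 3 loading arrays lie above all 3 non-loading arrays. For miR-204, which was near the negative controls and not tested, all 3 loading arrays lie below.

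miR-140, the arm known for its role in growth plate and joint cartilage, was measured by 2 probes with 10 spots each, and all 119 of the spots used were well above background. Its signal was 59.0%, 70.3% and 60.4% of the scale signal on non-loading replicates 1, 2 and 3. It was 68.7%, 63.4% and 64.8% on loading replicates 1, 2 and 3. The highest and the lowest of the 6 arrays were both non-loading, and all 3 loading values lay between them. The means were 63.2% ± 6.17 without and 65.7% ± 2.75 with loading (SD, n = 3), a log2 change of 0.06 (SE 0.10, 95% interval −0.18 to 0.29, limma adjusted p = 0.825). An exact two-sided permutation test over the arrays gave p = 0.6, where 3 against 3 cannot go below 0.1. The interval leaves room for changes of up to 0.29 on the log2 scale.

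The 2 probes of miR-140 gave log2 changes of 0.07 and 0.05. Over all 6 arrays the log2 signal of miR-140 spanned 0.25, against a median span of 0.44 over all tested miRNAs. The change of 0.06 was that of the median tested miRNA, which was also 0.06. Both values are small enough for the scaling to decide the sign, and the change was −0.0094 with quantile normalization and −0.097 with a 75th percentile over all probes.

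miR-140*, the strand of the same hairpin that was once counted as the by-product and is abundant in cartilage too, had 25.1%, 28.9% and 26.6% of the scale signal on the non-loading arrays. On loading replicates 1, 2 and 3 it had 29.5%, 21.7% and 25.4%. Here the highest and the lowest array were both loading, and the groups overlapped. The means were 26.8% ± 1.94 without and 25.6% ± 3.89 with loading (SD, n = 3). The log2 change was −0.08 (SE 0.13, 95% interval −0.40 to 0.24, limma adjusted p = 0.825; exact permutation p = 0.7).

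The lower mean of the loading group rested on loading replicate 2, without which the change was 0.031. The brighter of the 2 probes was well above background in every spot used and had a change of −0.10. The dimmer one had a change of 0.02 and reached detection on 3 arrays without and 2 with loading, with 0 of 10 spots well above background on loading replicate 2. That array had the smallest scale signal of the 6. It stood with loading replicate 3 in another row of the slide than the remaining 4 arrays, so that this row held loading samples alone. With the row as a block the change was 0.14, which sets loading replicate 1 alone against the 3 non-loading arrays. The part of slide position in this result was not tested.

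Both arms are cut from one precursor. Their ratio within an array does not depend on the scale signal, as both signals are divided by the same value. Its absolute level depends on the probes, so differences between arrays alone are read. The log2 ratio of miR-140 to miR-140* was 1.23, 1.28 and 1.19 on the non-loading arrays and 1.22, 1.54 and 1.35 on the loading arrays. The groups overlapped through loading replicate 1. The means were 1.23 ± 0.05 and 1.37 ± 0.16 (SD, n = 3), a difference of 0.14 with an exact two-sided permutation p of 0.3. Leaving out loading replicate 2 lowered the difference to 0.05, and leaving out loading replicate 1 raised it to 0.21.

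**Figure D2:**
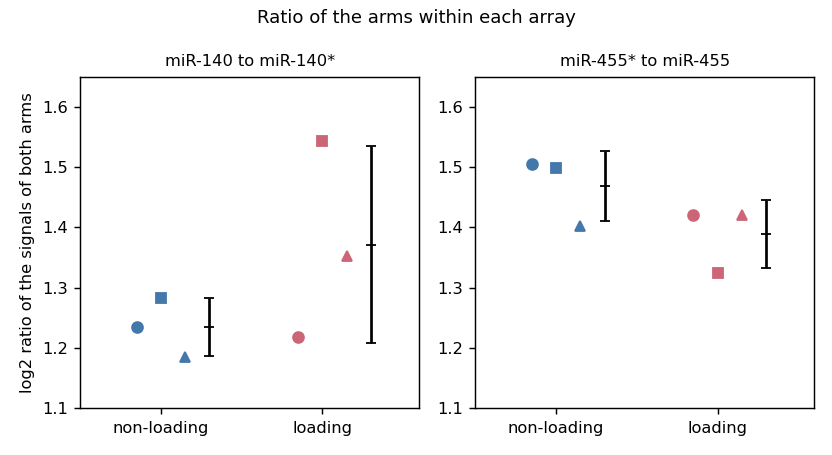
log2 ratio of the signals of both arms of a hairpin within each array, for miR-140 to miR-140* and for miR-455* to miR-455. Points are arrays with the symbols of the plot by array, bars the mean and SD of 3 arrays; the axis does not start at 0. The ratio of the miR-140 arms spans 1.22 to 1.54 under loading and 1.19 to 1.28 without, and neither panel separates the groups.

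miR-455, the second cartilage miRNA, was measured by 1 probe with 20 spots. Its signal was 3.08%, 3.14% and 3.14% of the scale signal on the non-loading arrays and 3.76%, 3.36% and 3.86% on loading replicates 1, 2 and 3. All 3 loading values lay above all 3 non-loading values. The means were 3.12% ± 0.0316 and 3.66% ± 0.261 (SD, n = 3), a 1.17-fold difference and a log2 change of 0.23 (SE 0.08, 95% interval 0.03 to 0.43). The unadjusted p was 0.0332, the ninth smallest of the 148, and the limma adjusted p was 0.486. The unadjusted p rests on a small spread. The pooled within-group SD was 0.07 on the log2 scale, against a median of 0.16 over all tested miRNAs. With eBayes with trend and robust the SE was 0.20 and the unadjusted p 0.278. With the negative-control mean subtracted, a setting added after seeing the data, the groups overlapped and the unadjusted limma p was 0.128. The exact permutation p was 0.1, the smallest that 3 against 3 arrays allow.

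The depth behind miR-455 was low. Before scaling, its intensities were 8.49, 9.56 and 11.4 without and 12.0, 8.83 and 12.5 with loading, and there the groups overlapped. All 6 values exceeded the 95th percentile of the negative controls of their array. The spots well above background numbered 2 of 20, 10 of 19 and 0 of 20 on the non-loading arrays and 18 of 19, 0 of 18 and 15 of 18 on the loading arrays. By these spots the probe was measured on 1 non-loading array and on 2 loading arrays, whereas the software's call per miRNA was positive on all 3 non-loading arrays and on loading replicates 1 and 3. Within an array the spots varied by 16.1% to 26.4% (coefficient of variation).

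With each array left out in turn the change of miR-455 stayed between 0.19 and 0.29. The unadjusted limma p was then under 0.05 in 2 of the 6 cases. Leaving out arrays cannot make separate groups overlap, so overlap is not informative there. The change was 0.03 with quantile normalization and −0.55 with the normexp background correction, where the median of all tested miRNAs moved to −0.47. With the slide row as a block the change of miR-455 was 0.27, which sets loading replicate 1 alone against the non-loading arrays. Its partner strand miR-455* was detected on all 6 arrays, with 8.76%, 8.88% and 8.29% of the scale signal without and 10.1%, 8.42% and 10.3% with loading. Loading replicates 1 and 3 were the highest arrays for both strands. For miR-455* the groups overlapped and the log2 change was 0.15 (SE 0.10, limma adjusted p = 0.724), and 1 of its 2 probes was in no spot well above background. The log2 ratio of miR-455* to miR-455 differed by −0.08 between the groups (exact permutation p = 0.3).

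**Figure D3:**
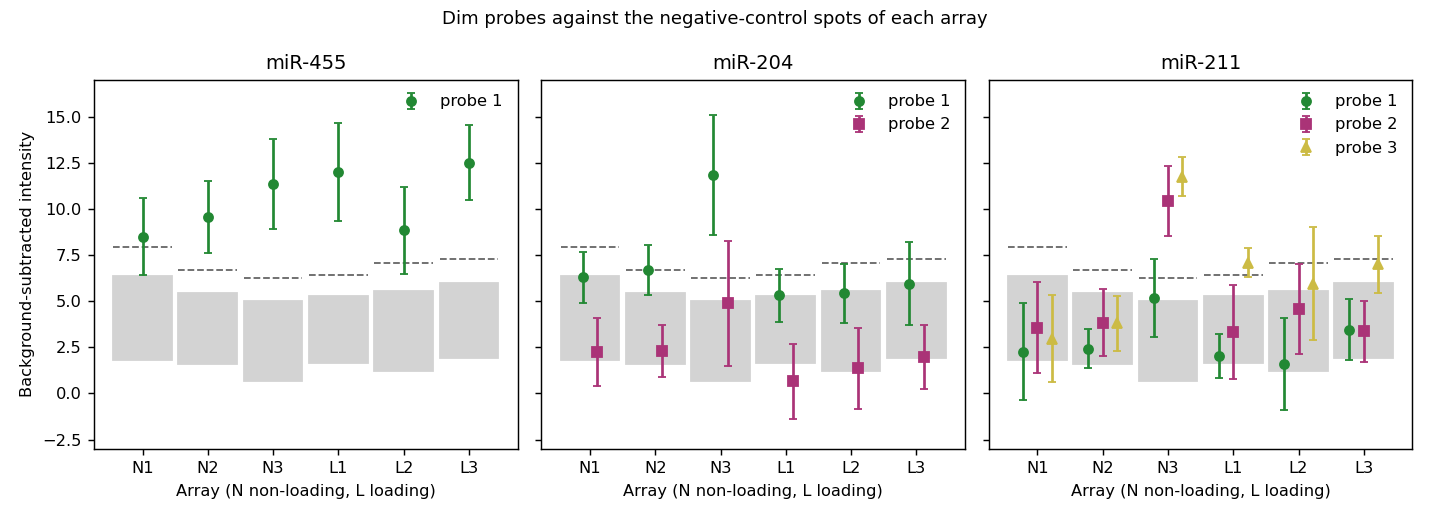
Background-subtracted intensity of each probe of miR-455, miR-204 and miR-211 on each array (mean and SD over spots). Grey boxes are the mean ± SD of the negative-control spots of the array and dashed lines their 95th percentile. The probe of miR-455 lies above the line on all 6 arrays, whereas probes of miR-204 lie above it in 1 of 12 cases and those of miR-211 in 3 of 18.

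miR-204, a repressor of Runx2, was at the edge of measurement. Of 112 spots used, 1 was well above background, on non-loading replicate 2. The intensities of its brighter probe were 6.29, 6.67 and 11.8 on the non-loading arrays and 5.31, 5.42 and 5.95 on the loading arrays. The dimmer probe read 2.26, 2.29 and 4.88 without and 0.668, 1.37 and 1.96 with loading. In 1 of these 12 cases, the brighter probe on non-loading replicate 3, the mean exceeded the 95th percentile of the negative controls. The summed signal was 3.11%, 2.95% and 4.62% of the scale signal without and 1.87%, 2.59% and 2.44% with loading. These values did not overlap between the groups, but nearly all spots of both groups were not well above background, so that no fold change is given. The software called miR-204 detected on non-loading replicates 2 and 3 and on loading replicate 1, the array with its lowest signal.

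miR-211, with the same seed, had no spot well above background among 119. The software nevertheless called miR-211 detected on non-loading replicate 3 and on loading replicates 1 and 3. The sum of its 3 probes was 3.19%, 3.31% and 7.55% of the scale signal without and 3.89%, 4.61% and 4.26% with loading, and the groups overlapped. The highest value stood on non-loading replicate 3, as for miR-204. On that array 2 of the 3 probes exceeded the 95th percentile of the negative controls, and the mean of the negative controls was at the same time the lowest of the 6 arrays, 2.84. No fold change is given. In RNA of whole cultures, fewer cells with a miRNA and less of it per cell cannot be told apart, and this holds for every level given here.

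The strands opposite to these 2 miRNAs differed in how well they were measured. miR-204* was not detected on any array and its probe signals were below 0 on average after background subtraction. miR-211* was detected on all 6 arrays, with both probes above the 95th percentile of the negative controls in 12 of 12 cases. Its spots well above background numbered 36 of 57 without and 48 of 57 with loading. On non-loading replicate 3 they were 2 of 19, and neither probe of miR-211* reached detection by its spots there. Its signal was 10.95%, 7.94% and 6.08% of the scale signal without and 9.01%, 10.3% and 10.1% with loading. It was lowest on non-loading replicate 3, where miR-211 was highest. The log2 change of miR-211* was 0.27 (SE 0.22, limma adjusted p = 0.724; exact permutation p = 0.4), with overlapping groups. Of the 4 strands of the Mir204 and Mir211 hairpins, miR-211* was the one that could be tested.

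miR-204 and miR-211 are also characteristic of pigment cells and the retinal pigment epithelium. Marker miRNAs of mesenchymal cells were mostly detected. Of the 6 mesenchymal markers 5, such as miR-199a-3p and miR-21, were detected on all 6 arrays, and miR-145 on 3. Their summed signal was 10789% to 11756% of the scale signal without and 11641% to 12031% with loading. The brightest of the 5 tested was miR-21, with mean log2 signals of 5.99 without and 6.14 with loading, so it weighs most in the sum. Of the markers of skeletal muscle 0 of 4 were detected, of epithelium 0 of 5 and of neural cells 0 of 2. Of the 4 blood cell markers miR-223 was detected, on 5 of the 6 arrays, while miR-142-3p, miR-142-5p and miR-451 were not. The summed signal of that list was 4.48% to 8.92% without and 7.72% to 9.47% with loading. The endothelial miR-126 had 2.77% to 4.91% and 3.91% to 5.36%. Changes of miR-223 (0.40) and miR-126 (0.25) had limma adjusted p-values of 0.709 and 0.724. Their part in the higher mean of miR-455 under loading was not tested.

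Other miRNAs that act on the same fate decision were taken from lists of names, which were also made with earlier results of these data known. Of 12 miRNAs on the array known to target Runx2, as miR-204 does, 7 were detected on no array and 5 were tested, 0 of them with an unadjusted p under 0.05, against 9.46% of all tested miRNAs. Their median log2 change was 0.09, against 0.06 over all tested miRNAs. miR-34c, which also targets Notch genes, had 0.13 (limma adjusted p = 0.724), miR-103 0.09 (0.724) and miR-218 −0.02 (0.957). The groups did not overlap for 1 of the 5, miR-103, with higher values under loading, beside 12.8% higher without overlap among all tested miRNAs.

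Of 10 miRNAs known to target Sox9 or to act in cartilage, 7 were tested and 1 was detected on no array. With the reported scaling 6 of the 7 had a change above 0, as had 99 of the 148 tested miRNAs, and the median change was 0.13. miR-27b, known to repress the collagenase Mmp13 in chondrocytes, had the smallest unadjusted p of these, 0.0439, as 1 of 7 under 0.05 beside 9.46% of all tested miRNAs, with a log2 change of 0.31 (SE 0.12, limma adjusted p = 0.486). miR-30a had 0.14 and miR-101b −0.12, both with a limma adjusted p of 0.724. miR-455* is in this list as well.

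Of 14 further miRNAs with roles in osteoblasts, 10 were tested and 4 were detected on no array. The median change was 0.08, with 8 above 0 and 2 below, beside 99 of 148 above 0 among all tested miRNAs. miR-210, which is induced by hypoxia, had 0.45 (SE 0.15, limma adjusted p = 0.486), with an unadjusted p of 0.0215. miR-29c, which targets collagens, had 0.11 (0.724). On the lower side, miR-26a had −0.17 (adjusted p = 0.724) and miR-214, a repressor of the osteoblast factor Atf4, −0.05 (0.885). For 2 of the 10, miR-210 and miR-29a, the groups did not overlap and loading was higher, beside 12.8% of all tested miRNAs. In each of the 3 lists 0 miRNAs had an adjusted p under 0.05.

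**Figure D4:**
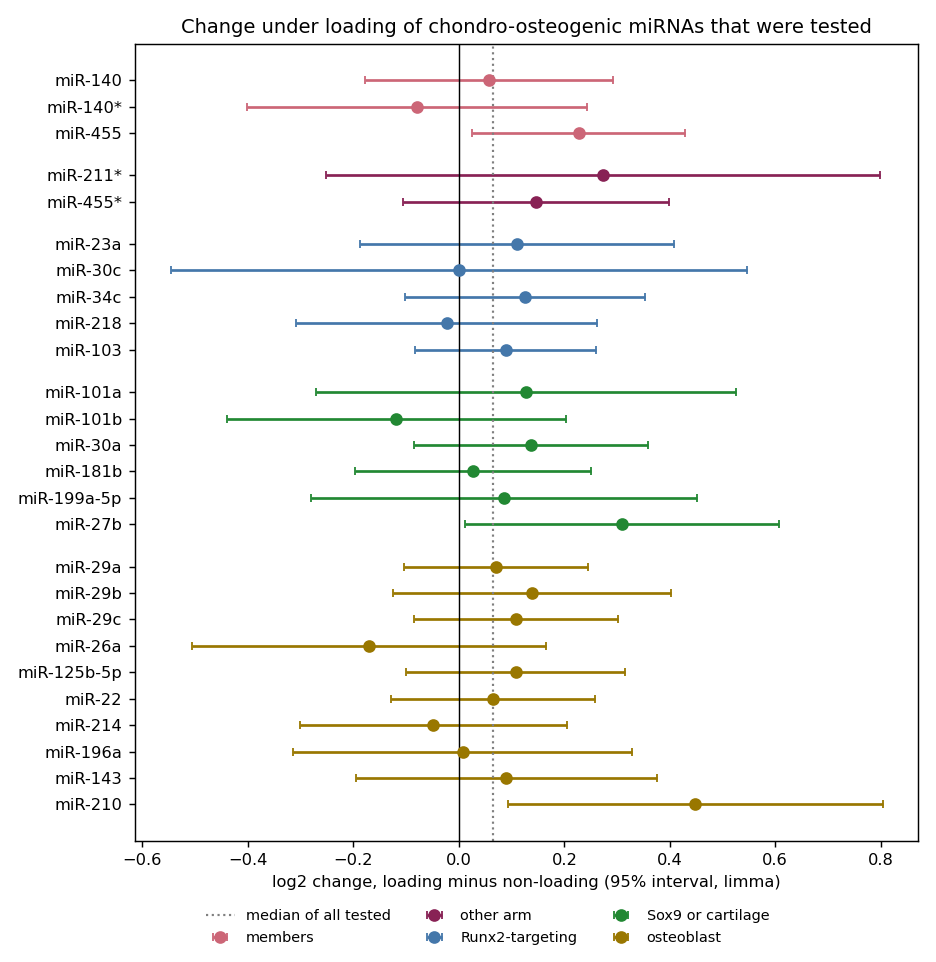
log2 change under loading (x axis, loading minus non-loading) with its 95% interval from limma, for the tested members, their partner strands and the 3 lists. The dotted line is the median of all 148 tested miRNAs, 0.06. The intervals of miR-455, miR-27b and miR-210 do not reach 0 before adjustment for multiple tests, and all others do.

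The miRNAs whose signals ran most like miR-140 over the 6 arrays were miR-22, miR-25 and miR-21, with root mean square differences of 0.05, 0.07 and 0.07 on the centred log2 scale. For miR-140* they were miR-26a, miR-218 and miR-152, with 0.07, 0.08 and 0.09. The arms of Mir140 were therefore each closest to miRNAs other than their own partner. These are descriptions over 6 arrays that share their scaling, and the changes under loading of all 6 had limma adjusted p-values between 0.709 and 0.957. For miR-455 none is given, as it was not detected on all arrays.

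**Figure D5:**
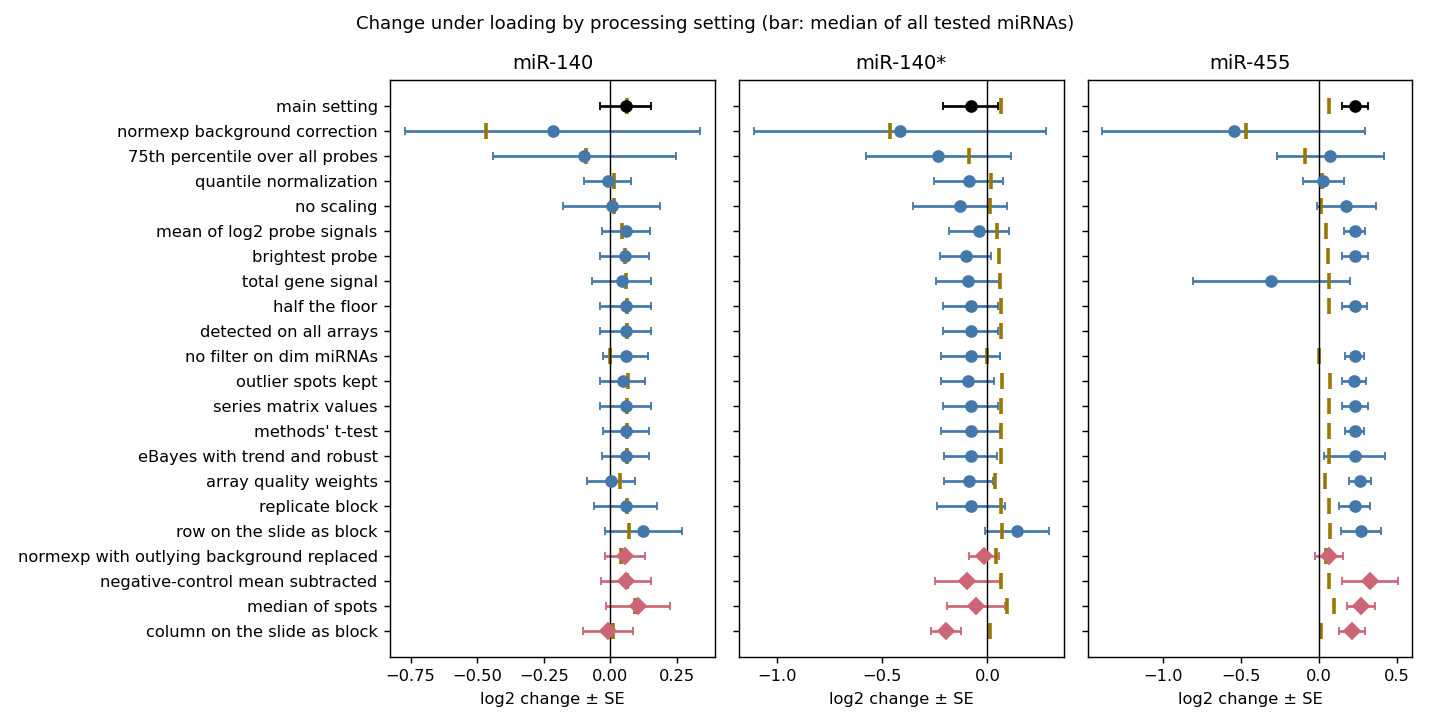
log2 change under loading (x axis, with SE) of miR-140, miR-140* and miR-455 with the reported processing (black), with other processing (blue) and with settings added after the data were seen (red diamonds). Vertical bars are the median of all tested miRNAs in that setting. Changes of miR-140 lie between −0.22 and 0.12, those of miR-140* between −0.42 and 0.14 and those of miR-455 between −0.55 and 0.32.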

How the data were processed

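Total RNA of 3 non-loading and 3 loading rTDSC samples was labelled with Cy3 and hybridised to one-colour Agilent rat miRNA arrays. The deposited scanner files hold a background-subtracted intensity per spot from Agilent Feature Extraction (10.7.3.1, per the file headers), with outlier, saturation and detection calls, not scaled between arrays. The authors' normalization was not used. The deposited series matrix repeats these intensities spot by spot (largest difference 0), so its scale is that intensity, uncentred; its column medians were −0.0688, 0.0199 and −2.03 for non-loading replicates 1 to 3 and 0.0533, −0.422 and 0.440 for loading replicates 1 to 3.

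Each array has 13540 spots of 1644 probes for 677 miRNAs. Control spots and outlier spots (2.93% to 4.17%) were dropped, the remaining spots averaged per probe, and arrays divided by their 75th percentile over 173 probes for which 50% or more of the spots were well above background on every array. A miRNA is the sum of its probes, with a floor at 1.87% of that percentile (the 1st percentile of detected miRNAs), on a log2 scale computed here from the deposited intensities. The 148 miRNAs called detected on all arrays of a group were tested with limma 3.58.1 (R 4.3.3, lmFit, eBayes, Benjamini-Hochberg, threshold 0.05), and single values with exact two-sided permutation of arrays. The methods' t-test (Student-Newman-Keuls) was an alternative.

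The members and lists were chosen with earlier results of these data known. Named were the members, the 3 miRNAs most like each member detected on all 6 arrays, the 2 smallest p-values per direction in each list, marker miRNAs and partner strands; miR-29a was added as one of few without overlap. Alternatives changed background correction, scaling, probe summary, floor, detection filter, outlier spots, values, test, array weights, blocks and arrays left out; normexp used an offset of 50, median foreground signals and no floor. The number of arrays limits precision.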

Additional observations from a re-analysis of the deposited data

How the results depend on the processing

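The count of miRNAs with an adjusted p under 0.05 was 0 in the reported analysis and with each array left out, and 2 with outlier spots kept, the brightest probe, log2 probe signals averaged, detection on all arrays, the methods' t-test, eBayes with trend and robust, array quality weights and, added after seeing the data, subtraction of the negative-control mean. None of the tested members had an adjusted p under 0.05 in any setting run, the lowest being 0.220 for miR-455. The 14 with an unadjusted p under 0.05 became 4 without scaling, 0 with normexp and 7 with the total gene signal. The count was 1 with the 75th percentile over all probes and 6 with the replicate block. It was 8 with the added normexp in which outlying background was replaced. The count also fell with the slide row as block, a fit whose contrast rests on loading replicate 1 alone. Leaving out 1 array gave 6 to 17 (7 when loading replicate 1 and 6 when loading replicate 3 was left out). The median change of all tested miRNAs was −0.47 with normexp and −0.09 with the percentile over all probes.

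miR-140 turned to −0.22 with normexp, −0.10 with the percentile over all probes, −0.0094 with quantile normalization and −0.0070 with the slide column as block (added), and lay between 0.01 and 0.14 with 1 array left out. miR-140* turned to 0.14 with the slide row as block, where loading replicate 1 alone is set against the non-loading arrays. It turned to 0.031 without loading replicate 2 (range over arrays left out −0.19 to 0.031). miR-455 turned to −0.55 with normexp and −0.31 with the total gene signal, and was 0.06 to 0.32 in the 4 added settings; the software writes its own value for an undetected miRNA, here loading replicate 2, and otherwise the cause was not tested. Its groups did not overlap in 11 of the 16 settings apart from the added ones, and its unadjusted p was under 0.05 in 8. Most of these 11 leave its array values as they are, since they change the fit, filter or floor, or the summary of its 1 probe. The groups of miR-455 overlapped with normexp, the percentile over all probes, quantile normalization, no scaling and the total gene signal. With outlier spots kept the groups of miR-455 did not overlap. It has no value under detection on all arrays. The difference in the ratio of the miR-140 arms kept its sign, at 0.05 to 0.21 over the settings and left-out arrays run for it. Deviations of same-numbered samples from their group means correlated at −0.69, −0.47 and 0.11. With so few arrays these values cannot settle whether replicate numbers pair the samples, and the labels do not say. With the replicate block the change of miR-455 was 0.23 with a limma adjusted p of 0.850. Signals near the negative controls limit what can be said of miR-455, miR-204 and miR-211.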

Other observations

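Without a filter on dim miRNAs, a limma fit over all 677 gave miR-204 an unadjusted p of 0.0676 and an adjusted p of 0.438, and miR-211 an adjusted p of 0.973. Neither is read as a level, since nearly all of their spots were not well above background.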
